A study of Mus musculus with 2 samples.

Results

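Jun, Junb, Jund, Fos, Fosl1, Egr1, Ier2, Ier3, Atf3 and Myc are 10 genes known from other systems as immediate early or closely allied genes. They were taken by symbol from a table of 55415 features, where all 10 were found. The cells were mouse embryonic stem cells of 1 line, which carried GFP under the promoter of the endogenous retrovirus MERVL and an H2B-mIFP tag for following cells. The study had 2 single-cell libraries: 1 labelled MERVL GFP positive (the positive library) and 1 labelled MERVL GFP negative (the negative library). Both were given as mESC with no treatment named, and the gate or sort behind these labels is not given in the sources used here. The questions were how each gene's level differed between the libraries and along the Zscan4, GFP and Gata6 plus Dab2 levels of single cells, and whether Jun moved apart from the others.

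Immediate early genes are transcribed within minutes of a growth factor or stress signal, without new protein being made first. The products of Jun, Junb and Jund pair with those of Fos and Fosl1 through leucine zippers to form AP-1, a transcription factor whose Jun subunit is phosphorylated by the JNK kinases, while Fos, Egr1 and Ier2 are classic targets of ERK signalling through serum response factor. The 2C-like state is a rare, passing state of embryonic stem cells in which MERVL and the Zscan4 genes are switched on, and Gata6 and Dab2 mark primitive endoderm, a lineage that such cultures can also give rise to.

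With 1 library per group there is no replicate check and no test: a difference between the libraries cannot be told apart from a difference between 2 cultures or library preparations, and values are described by size. Levels are unique molecules (UMIs) per 1000000 UMIs (CPM), summed over the cells of a group, and intervals are 95% and cover counting error only. After filtering there were 4596 cells with a median of 29554.5 UMIs in the positive library and 3832 cells with a median of 39099.5 UMIs in the negative library. The libraries shared 3 cell barcodes. The labels fitted the marker genes: GFP was at 205 CPM in the positive and 0.454 CPM in the negative library, the 2C-like markers summed to 727 and 1.45 CPM, and the 12 pluripotency markers to 15098 and 14465 CPM with none at 0. The 14 fibroblast markers summed to 24.9 and 9.64 CPM, and none of them reached the limit on low values. Markers of other lineages also differed between the libraries: the 19 primitive endoderm markers summed to 1186 and 511 CPM, with 8 of the 14 above the limit on low values at least 2-fold higher, beside 7.01% of all genes. With TMM scaling, which corrects for composition, 4 of 13 were higher. The pluripotency markers were near level in sum but not each alone. Of 11 above the limit on low values, 1 was higher and 1 lower, beside 7.01% and 0.995% of all genes. With TMM, Utf1 alone was called, as lower. Of 10 trophoblast markers, which summed to 103 and 62.8 CPM, the keratins Krt18 and Krt8 were higher, at 36.7 and 8.13 CPM and at 31.7 and 7.74 CPM, and 1 was lower. Their part in the library differences of the 10 genes was not tested. The counts carry no length correction, so levels are compared within a gene and not between genes.

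Jun is the AP-1 subunit after which the family is named. It is a gene of 1 exon at chr4:95049034-95052222 on the minus strand (GRCm38, GENCODE M21). Its promoter is printed with those of Junb, the nearest member of its family, and of Fos, its usual partner, since the levels of these 3 genes came apart in the data. Each runs 5′ to 3′ from 250 bases before to 50 bases after the start site (RefSeq, GRCm38.p6, 300 bases; 6 of the 10 genes had an entry), at chr4:95052173-95052472 (minus), chr8:84978699-84978998 (minus) and chr12:85473640-85473939 (plus). Capitals mark matches on either strand to the AP-1 site TGANTCA, the CRE-like site TGACNTCA, the CArG box bound by serum response factor, or the CCAAT box.
Jun promoter: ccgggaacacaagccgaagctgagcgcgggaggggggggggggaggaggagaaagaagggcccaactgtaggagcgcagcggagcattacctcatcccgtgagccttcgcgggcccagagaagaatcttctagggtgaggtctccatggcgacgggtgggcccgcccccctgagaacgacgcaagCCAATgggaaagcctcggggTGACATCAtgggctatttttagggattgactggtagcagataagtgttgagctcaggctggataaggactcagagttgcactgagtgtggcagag
Junb promoter: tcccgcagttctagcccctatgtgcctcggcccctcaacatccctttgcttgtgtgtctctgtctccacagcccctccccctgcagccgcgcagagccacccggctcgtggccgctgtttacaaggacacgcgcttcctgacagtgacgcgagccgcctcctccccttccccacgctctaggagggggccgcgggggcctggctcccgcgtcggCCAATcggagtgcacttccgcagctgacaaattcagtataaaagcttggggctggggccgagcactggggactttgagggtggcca
Fos promoter: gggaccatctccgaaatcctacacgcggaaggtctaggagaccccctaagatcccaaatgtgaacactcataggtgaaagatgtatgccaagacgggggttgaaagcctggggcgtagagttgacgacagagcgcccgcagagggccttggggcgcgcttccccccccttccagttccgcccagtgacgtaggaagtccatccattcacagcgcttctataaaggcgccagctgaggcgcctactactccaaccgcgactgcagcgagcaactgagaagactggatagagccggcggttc
Jun had a CRE-like match, TGACATCA, that began at position -45 and a CCAAT match at -65. Junb had a CCAAT match at -36, and the Fos window had no match to any of the 4 motifs as spelled. Of 32851 promoters of this length, 8.83% held the CRE-like letters, 37.4% CCAAT, 7.81% the AP-1 letters and 1.63% a CArG box. A CRE-like match cannot hold an AP-1 match, while a CArG box that starts with CCAAT would count for both. A match is a stretch of letters and was not tested as a site.

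Between the libraries, Jun was higher in the positive library while the other 9 genes were level or lower there. Jun was at 32.7 CPM (31.8 to 33.7) in the positive and 9.48 CPM (9.01 to 9.98) in the negative library, which gave a ratio of 3.45 (3.26 to 3.66). Junb (chr8:84974484-84978718, minus strand) was at 15.4 CPM in the positive and 19.8 CPM in the negative library, a ratio of 0.775 (0.733 to 0.819). Jund (chr8:70698949-70700616, plus strand), the most steadily expressed Jun gene in many tissues, was at 103 and 133 CPM, a ratio of 0.776 (0.760 to 0.793). Of the 3 Jun family genes, Jun was thus higher and the other 2 lower in the positive library.

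The Fos family members, which form AP-1 only as partners of a Jun protein, differed in how well they could be compared: Fos was level, and Fosl1 had too few UMIs. Fos (chr12:85473890-85477273, plus strand) was at 9.19 CPM (8.69 to 9.71) and 9.35 CPM (8.88 to 9.85), a ratio of 0.982 (0.911 to 1.06), so the ratio's interval spanned 1. Fosl1 (chr19:5447547-5455946, plus strand), also called Fra-1, was near the floor of the data with 47 UMIs in the positive and 71 in the negative library, or 0.340 and 0.454 CPM. It passed the limit on low values in no comparison, and its ratio of 0.749 had an interval from 0.507 to 1.1.

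Egr1 and Ier2, both read as markers of recent ERK signalling in other cells, had the lowest ratios of the 10 genes. Egr1, a zinc finger transcription factor, was at 9.66 CPM (9.15 to 10.2) in the positive and 19.8 CPM (19.1 to 20.5) in the negative library, which gave a ratio of 0.489 (0.458 to 0.521). Ier2 (chr8:84661331-84662852, minus strand) was at 68.6 CPM (67.2 to 69.9) and 135 CPM (133 to 137), a ratio of 0.508 (0.496 to 0.520). Ier3 (chr17:35821684-35822923, plus strand), which encodes a short-lived survival factor, was at 7.76 and 9.40 CPM, a ratio of 0.825 (0.762 to 0.894).

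Atf3 (chr1:191170296-191218039, minus strand), a stress-induced relative of Jun that can pair with it, was at 7.09 CPM (6.65 to 7.54) in the positive and 11.3 CPM (10.8 to 11.8) in the negative library, which gave a ratio of 0.627 (0.580 to 0.679). Myc (chr15:61985391-61990374, plus strand), which supports self-renewal of embryonic stem cells, was at 12.3 CPM (11.7 to 12.9) and 17.6 CPM (17 to 18.3), a ratio of 0.697 (0.656 to 0.741). Neither Atf3 nor Myc shared Jun's direction.

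**Figure D1:**
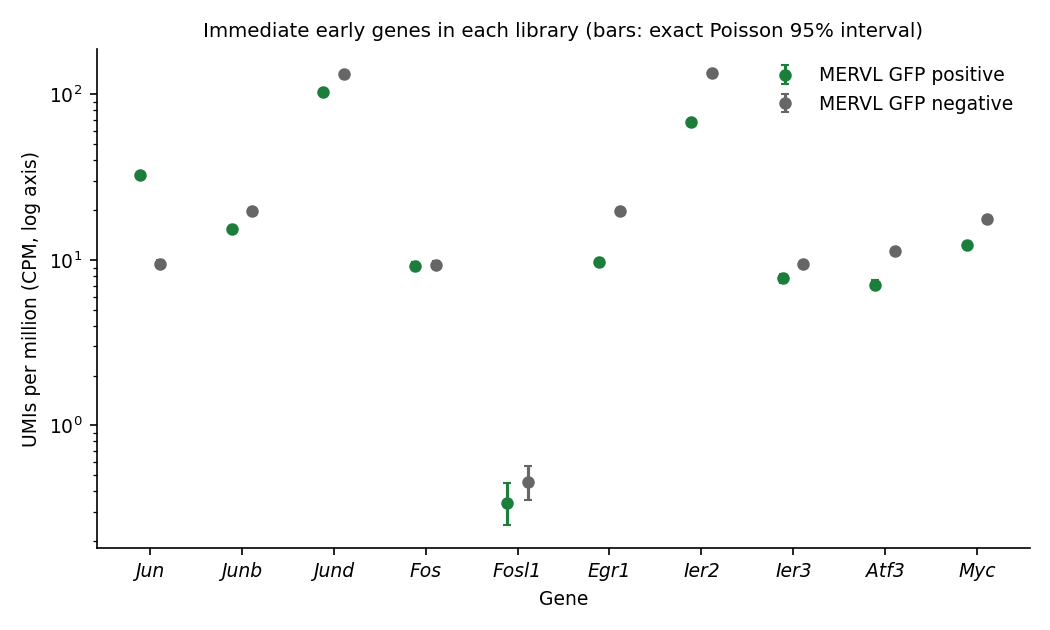
Level of each gene in the positive (green) and negative (grey) library in CPM on a log axis, with exact Poisson 95% intervals that are mostly smaller than the points. Jun, at 32.7 against 9.48 CPM, is the 1 gene with the green point clearly above the grey one, and Egr1 and Ier2 show the widest gaps the other way.

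A gene was called different where the ratio of CPM + 1 was at least 2-fold either way, with at least 10 CPM in either group and 50 UMIs in both together. By this rule 7 of the 10 genes could be called, and 1, Jun, was higher, with a log2 ratio of 1.69. Jun passed the limit of 10 CPM only through the positive library, being at 9.48 CPM in the negative one. The same holds, on its own values, for each gene named further on that is under 10 CPM in 1 of its groups. Over all 8042 genes that could be called, 7.01% were higher and 0.995% lower in the positive library, and 96.4% of them had a log2 ratio below that of Jun. None of the 10 was called lower: Egr1 and Ier2, with log2 ratios of -0.96 and -0.97, lay just inside the limit. Jun's log2 ratio exceeded the median of the other 9, -0.36, by 2.05. A common scaling factor cancels in this gap but for the added 1 CPM, and it was 2.06 with TMM scaling and 2.22 with the mean of each cell's CPM. The calls of the others depend on it: with TMM Egr1 and Ier2 stood at -1.24 and -1.26, past 2-fold, with Jun at 1.41. TMM moved the median of all genes from 0.14 to -0.16 and the higher share of all calls from 87.6% to 59.3%.

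The share of cells with a Jun molecule followed its level. In cells thinned to 10000 UMIs each, 22.2% (21 to 23.5) of 4402 cells of the positive library and 8.60% (7.73 to 9.54) of 3824 cells of the negative library had at least 1 Jun UMI (42.5% and 23.6% without thinning), after 194 and 8 shallower cells were left out. For Junb the thinned shares were 12.5% and 15.7%, for Egr1 8.50% and 15.5%, and for Ier2 43.3% and 68.6%, all lower in the positive library. Thinned shares of Fos were 8.11% (7.32 to 8.96) and 7.66% (6.84 to 8.55), with overlapping intervals. No cell type in these libraries is known to lack these genes, so a background share from free RNA could not be set. The 1% of cells with the most Jun UMIs held 15% of them in the positive and 17.9% in the negative library.

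Neighbouring genes bear on some of these counts, because whether reads were counted by strand is not given in the sources used here. Jun overlaps the antisense gene Junos, which was at 0.224 and 0.249 CPM in the positive and negative libraries. Junb overlaps Prdx2 on the opposite strand, an abundant gene at 267 and 367 CPM. If reads were not counted by strand, those of the 2 could not be told apart where they overlap. Fosl1 overlaps Ccdc85b, at 39.6 and 44.6 CPM. Jund overlaps the antisense gene Gm11175, at 0.174 and 0.160 CPM.

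Among cells with 0 Zscan4, Gata6 and Dab2 UMIs after thinning, 1077 in the positive and 3360 in the negative library, Jun was at 19.7 CPM (18.3 to 21.2) and 9.21 CPM (8.71 to 9.74), a ratio of 2.14 (1.95 to 2.35). A 0 after thinning is not absence, and these cells still differed in marker genes. The 2C-like list summed to 119.6 and 0.708 CPM, with 5 higher of the 5 that could be called, and the Zscan4 family to 49.1 and 0.161 CPM. The primitive endoderm list summed to 418.5 and 202.8 CPM, with 4 of 7 higher, or 2 of 7 with TMM. Their part in Jun's ratio was not tested. Jun was the 1 gene of 10 called higher and none was called lower, against 3.39% and 0.438% of 7767 genes. At 9.21 CPM in the negative library, Jun again passed the limit of 10 CPM only through the group where it was higher. Its log2 ratio of 1.02 was above the median of the other 9, -0.40, by 1.42. Jun stayed under 2-fold in 7 of 12 alternatives, among them TMM at 0.73, median of ratios at 0.71, thinned UMIs only at 0.83 and cells of 20000 to 40000 UMIs at 0.69. With TMM, Egr1, Ier2 and Atf3 were called lower at -1.07, -1.13 and -1.01, and the higher share of all calls moved from 88.6% to 54.0%. The other genes did not all lie nearer to 1 than between the whole libraries: the log2 ratio of Atf3 was -0.72 here and -0.60 there, that of Fos -0.19 and -0.02. Egr1 was at 11.7 and 20.7 CPM and Ier2 at 78.9 and 139.7 CPM in these cells, ratios of 0.565 (0.509 to 0.625) and 0.565 (0.543 to 0.587). Myc, at 17.3 and 16.8 CPM, was level, with a ratio of 1.03 (0.938 to 1.12).

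Along the Zscan4 level, Jun was higher step by step while most of the others were not. Zscan4 is a family of 9 symbols here, and cells of the positive library were put in classes by their Zscan4 UMIs after thinning to 10000: 1438 cells had 0, 1860 had 1 to 4, 745 had 5 to 19 and 359 had 20 or more. Jun was at 20.8 CPM (19.6 to 22.2) with 0, 24.4 CPM (23.2 to 25.7) with 1 to 4, 49.6 CPM (46.6 to 52.8) with 5 to 19 and 124 CPM (116 to 133) with 20 or more. The highest class was 5.96 times (5.45 to 6.53) the class with 0, and no 2 classes had overlapping intervals. The negative library had 13 cells above 0 in all, too few for classes, and its 3811 cells at 0 had 9.49 CPM of Jun.

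The share of cells with a Jun UMI and the Jun UMIs per cell both rose over the 4 classes; a higher mean raises both, so they are not separate measures. The thinned share of cells with a Jun UMI was 14.3% (12.5 to 16.2), 19.3% (17.5 to 21.2), 31.5% (28.2 to 35.0) and 50.1% (44.8 to 55.4) over the 4 classes, against 8.63% in the negative library's cells at 0 (unthinned: 36.6%, 39.8%, 51.5%, 69.9% and 23.7%). The share with 3 or more Jun UMIs was 1.39% in the class with 0 and 15.9% in the class with 20 or more. Counted without any scaling, a cell held on average 0.706, 0.786, 1.37 and 2.56 Jun UMIs, so the order was the same in raw molecules.

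**Figure D2:**
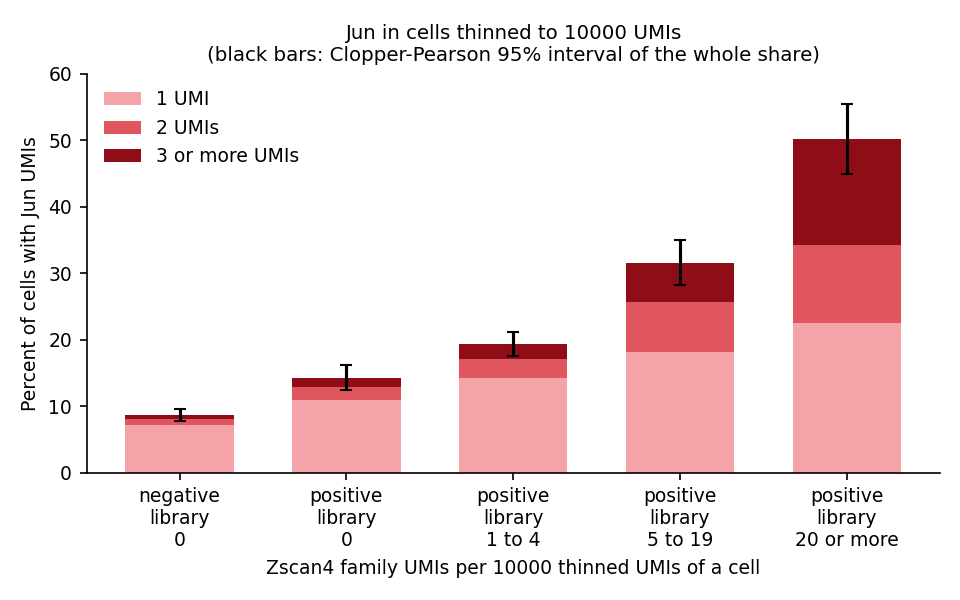
Percent of cells with 1, 2, or 3 or more Jun UMIs after thinning each cell to 10000 UMIs, by Zscan4 class, with black bars for the Clopper-Pearson 95% interval of the whole share. The share grows from 8.63% in the negative library through 14.3% in the positive library's cells without Zscan4 to 50.1% at 20 or more Zscan4 UMIs.

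Depth moved with Zscan4 and with Jun. Median UMIs per cell were 33146.5, 31202, 25419 and 19260 over the 4 Zscan4 classes, and the mitochondrial share was 2.35%, 2.45%, 2.78% and 3.28%. Among cells with 0 Zscan4 in the positive library, Jun was at 55.2 CPM (44.1 to 68.3) in those of 10000 to 20000 UMIs, 33.3 CPM (30.1 to 36.8) at 20000 to 30000, 15 CPM (13.3 to 16.8) at 30000 to 40000 and 15.4 CPM (13.6 to 17.4) above that. In the negative library's cells at 0 the same bands had 19.8, 19.3, 10.8 and 7.13 CPM. Jun was thus higher in shallower cells of both libraries.

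Within a band of depth, the upper Zscan4 classes had more Jun, though not always beyond counting error. At 10000 to 20000 UMIs the classes had 55.2, 66.9, 77.1 and 147 CPM, and at 20000 to 30000 UMIs 33.3, 31.4, 62.6 and 118 CPM. The step from 0 to 1 to 4 lay within overlapping intervals in both of these bands. At 10000 to 20000 UMIs the interval of the class with 5 to 19 also overlapped those of both lower classes. At 20000 to 30000 UMIs it lay above them. The class with 20 or more was above every other in both bands. At 30000 to 40000 UMIs the first 3 classes had 15, 20.5 and 32.0 CPM, and the highest class had 25 cells and is not given. The part of depth in Jun's overall difference was not tested.

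**Figure D3:**
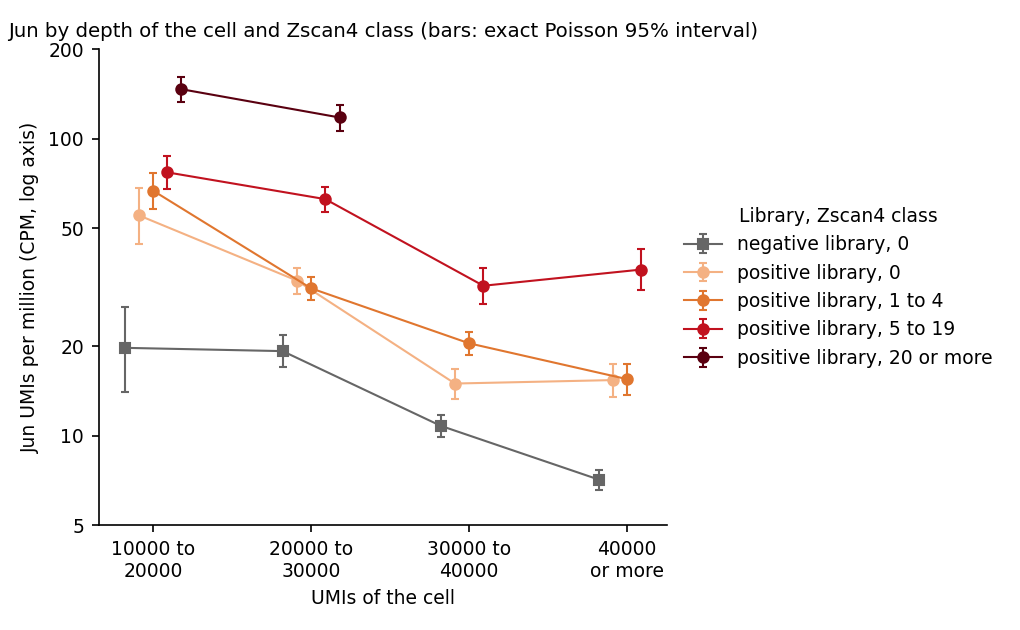
Jun in CPM on a log axis by the UMIs of the cell (4 bands) and the Zscan4 class, for the positive library (circles) and the negative library's cells at 0 (grey squares), with exact Poisson 95% intervals and classes under 50 cells left out. Every class has its highest point at 10000 to 20000 UMIs, and in each band the points with 5 to 19 and with 20 or more lie above those with fewer Zscan4 UMIs. At 10000 to 20000 UMIs the interval with 5 to 19 overlaps those of both lower classes.

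The other AP-1 and immediate early genes took several courses over the Zscan4 classes of the positive library. Junb was at 16.1, 16.1, 12.2 and 12.7 CPM from the lowest to the highest class, and Jund at 103, 105, 107 and 87.9 CPM. Both ended lower, Junb at 0.788 (0.629 to 0.977) and Jund at 0.852 (0.784 to 0.925) times the class with 0. Prdx2, which overlaps Junb, was at 217 and 282 CPM in cells with at least 5 and with 0 Zscan4 UMIs, a log2 ratio of -0.38 beside -0.36 for Junb. Its part in Junb's counts was not tested. Neither of Jun's closest relatives shared its course.

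Fos, Ier3 and Atf3 were near level up to the third class and higher in the last. Fos was at 8.89, 8.05, 9.31 and 21.1 CPM, the last 2.37 times (1.96 to 2.86) the first. Ier3 was at 7.06, 6.93, 8.0 and 17.6 CPM, the last 2.49 times (2.02 to 3.05) the first. Atf3 was at 6.30, 7.53, 5.57 and 13.0 CPM, the last 2.06 times (1.62 to 2.60) the first. These 3 genes thus differed from Jun in that Jun was already 2.38 times (2.18 to 2.60) higher in the class with 5 to 19. In raw molecules per cell they differed less, since the cells of the last class were shallower. Fos went from 0.301 to 0.435 UMIs per cell, Ier3 from 0.239 to 0.362 and Atf3 from 0.213 to 0.267. The log2 ratio of the last class over the first was 1.16 for Fos, 1.20 for Ier3 and 0.94 for Atf3. Kept to cells of 15000 to 30000 UMIs, it was 0.77, 0.94 and 1.085. The part of depth was not tested.

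Egr1 was lower in the middle classes, at 11.8, 8.0, 7.32 and 16.6 CPM, and its last class was 1.41 times (1.15 to 1.72) the first. Ier2 was at 75.4, 68.8, 54.1 and 63.4 CPM, with the last class at 0.841 (0.762 to 0.926) of the first. Fosl1 had 14, 22, 8 and 2 UMIs over the classes, which is too few to order.

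Myc ran opposite to Jun. It was at 16.4 CPM (15.3 to 17.6), 12.1 CPM (11.2 to 13), 5.96 CPM (4.95 to 7.11) and 5.95 CPM (4.32 to 7.98), so that the cells without Zscan4 had 2.75 times (2.03 to 3.82) the level of the highest class. A cell held 0.555 Myc UMIs on average in the class with 0 and 0.123 in the class with 20 or more. Lineage markers moved over the same 4 classes. The 12 pluripotency markers summed to 16241, 15888, 12966 and 8190 CPM, the primitive endoderm markers to 1288, 1195, 1104 and 612 CPM, and Gata6 plus Dab2 to 165, 152, 109.5 and 37.6 CPM. In cells with at least 5 against 0 Zscan4 UMIs, 4 of the 12 pluripotency markers were lower, Klf4, Sox2, Utf1 and Zfp42, beside 2.16% of all genes. Their part in the courses of Jun, Myc and the others was not tested.

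**Figure D4:**
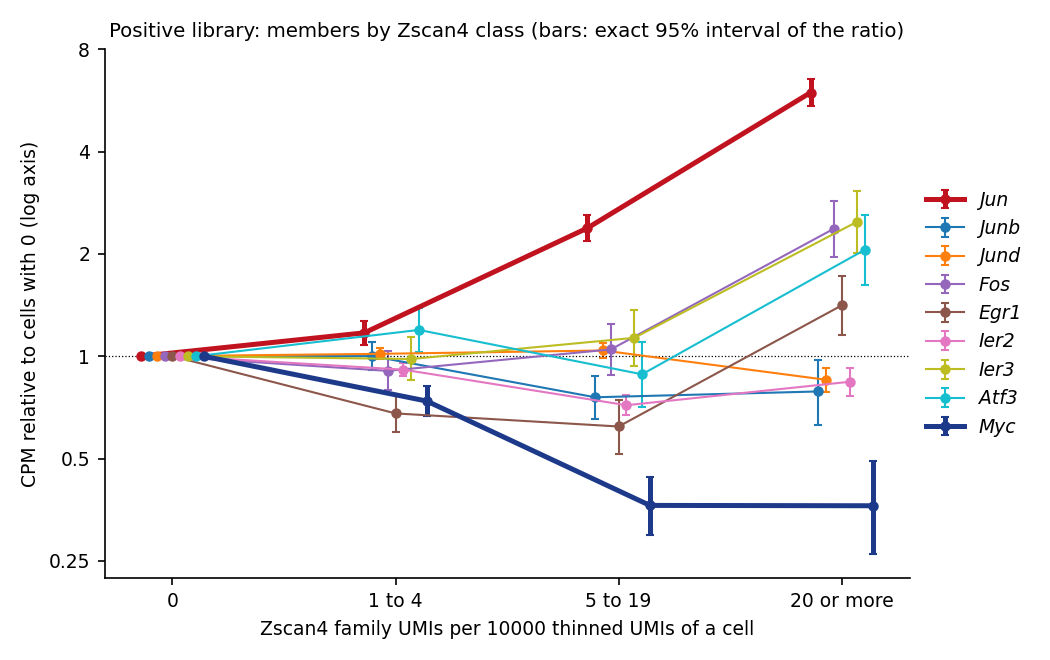
CPM of 9 genes relative to cells with 0 Zscan4 UMIs in the positive library, on a log axis, by Zscan4 class, with exact 95% intervals of the ratio; Fosl1 is left out for its low counts. Jun ends at 5.96 and Myc at 0.363, with Fos, Ier3 and Atf3 between 2.06 and 2.49 in the last class alone.

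Put as a single contrast, 1104 cells with at least 5 Zscan4 UMIs against 1438 with 0, Jun was higher and Myc lower. By the 2-fold rule 1 of the 10 genes was called higher and 1 lower, of 8 that could be called, where 7.01% and 2.16% of 8301 genes were. Jun was at 69.3 and 20.8 CPM, a log2 ratio of 1.69 that was above those of 96.2% of these genes, and Myc was at 5.96 and 16.4 CPM, a log2 ratio of -1.32. Myc passed the limit of 10 CPM only through the cells with 0, where it was higher. The median of the other 9 was -0.01, and Jun lay 1.70 above it. Among cells of 20000 to 40000 UMIs, Jun was at 1.47 and Myc at -1.48 in the same contrast, and both stayed called. The gap between Jun and the others was 2.54 with the class of 20 or more set against 0, and 1.62 when that contrast was kept to cells of 15000 to 30000 UMIs.

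Along GFP, the reporter's own transcript, Jun was also higher and Myc lower, while Egr1, Fos and Atf3 did not end higher as they did along Zscan4. In the positive library 1677 cells had 0 GFP UMIs after thinning, 1339 had 1 to 2, 807 had 3 to 5 and 579 had 6 or more. Jun was at 23.4 CPM (22.1 to 24.7), 30.5 CPM, 42.8 CPM and 55.5 CPM over these classes, the last 2.38 times (2.18 to 2.60) the first. Myc was at 15.3, 12.3, 9.59 and 5.49 CPM, so the first class had 2.79 times (2.22 to 3.56) the level of the last. Egr1 was at 11.7, 9.32, 7.83 and 6.25 CPM, and Jund at 111, 98.9, 102 and 91.7 CPM. Fos, at 10.3, 8.36, 7.57 and 10.3 CPM, and Atf3, at 6.78, 7.41, 7.31 and 7.0 CPM, had no steady course. Ier3 was 1.32 times (1.08 to 1.59) as high in the last class as in the first, while Junb was at 0.804 (0.689 to 0.935) and Ier2 at 0.888 (0.826 to 0.953) times the first.

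For 1386 cells with at least 3 GFP UMIs against those with 0, Jun was at 47.7 and 23.4 CPM, a log2 ratio of 1.0 that sat right at the limit. Jun was the 1 gene of 10 called higher and none was called lower, where 4.18% and 0.98% of 8166 genes were. Jun was under 2-fold in 3 of 14 alternatives: among cells of 20000 to 40000 UMIs, at 0.68, among cells with at most 5% mitochondrial UMIs, at 0.96, and with a stricter cell filter, at 0.998. That filter asked for at least 5000 UMIs and 1500 genes and at most 10% mitochondrial UMIs. Median UMIs per cell were 32428 with 0 GFP and 24342 with 6 or more, and the part of depth was not tested.

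Jun's level was also described by GFP class within a Zscan4 class. Among cells with 0 Zscan4, Jun was at 20.4, 17.9, 29.3 and 30.3 CPM over the 4 GFP classes, with the last 2 resting on 133 and 73 cells. These classes differed in more than GFP. From the first to the last, the 2C-like list went from 78.6 to 675 CPM and the primitive endoderm list from 1198 to 2139 CPM. Median UMIs went from 33515.5 to 28610. The part of these differences in Jun's level was not tested. Among cells with 20 or more Zscan4 UMIs, Jun was at 143 CPM (127 to 161) with 1 to 2 GFP UMIs, 114 CPM (101 to 130) with 3 to 5 and 116 CPM (103 to 130) with 6 or more. At the highest Zscan4 level Jun was thus no higher with more GFP, whereas at each of these 3 GFP levels it was higher with 20 or more Zscan4 UMIs than with 0.

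Along the Gata6 plus Dab2 level, the genes split in another way, and Jun did not stand as far apart. In the positive library 3290 cells had 0 of these UMIs after thinning, 529 had 1, 197 had 2 to 4 and 386 had 5 or more; in the negative library these were 3371, 207, 55 and 191 cells. The 19 primitive endoderm markers summed to 438 and 7238 CPM in the first and last class of the positive library, and to 203 and 5534 CPM in the negative library. The classes differed little in depth, with medians of 30489.5 and 30610 UMIs in the first and last class of the positive library and 39094 and 40225 in the negative library.

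Jun was at 29.7 CPM (28.6 to 30.7), 41.8, 55.9 and 31.6 CPM over the endoderm classes of the positive library, highest in the middle. Zscan4 was itself unevenly spread over these classes, at 477, 626, 568 and 190.2 CPM. The trophoblast markers were also highest in the class of 2 to 4, at 86.4, 102, 299 and 159 CPM, and the pluripotency markers ran from 15871 through 14487 and 12020 to 11496 CPM. With at least 2 Gata6 plus Dab2 UMIs against 0, 8 of 12 pluripotency markers were lower in the positive library, beside 4.29% of all genes. In the negative library 4 of 11 were lower and 1 higher, beside 2.78% and 5.44%, and 6 of 11 were lower with TMM. Of 3 trophoblast markers that could be called in each library, Krt8 and Krt18 were higher in both, beside 5.2% and 5.44% of all genes. In the negative library 1 of the 3 was lower, which was Tfap2c with TMM. The part of these markers in the values of the 10 genes was not tested. In the positive library's cells without Zscan4, Jun was at 20.3 CPM (19 to 21.8) with under 2 Gata6 plus Dab2 UMIs and 23.6 CPM (20.2 to 27.4) with 2 or more, with overlapping intervals. With 1 to 4 Zscan4 UMIs these were 22.4 and 38.2 CPM, and with 5 to 19 they were 46.9 and 67.5 CPM. In the negative library Jun was at 9.20, 9.35, 13.8 and 13.1 CPM, the last 1.42 times (1.15 to 1.74) the first.

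Junb was the Jun family gene with the same course in both libraries. It was at 14.2, 15.1, 19.2 and 23.8 CPM in the positive and 19.1, 18, 26.3 and 31.8 CPM in the negative library. The last class was 1.68 times (1.47 to 1.90) the first in the positive and 1.67 times (1.46 to 1.90) in the negative library. Jund was at 99.3 and 119 CPM in the first and last class of the positive library and at 132 and 139 CPM in the negative library.

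Egr1 and Ier2 were both lower in the last endoderm class of each library. Egr1 was at 10.1, 10.6, 9.75 and 4.89 CPM in the positive and 20.6, 17.1, 19.8 and 7.55 CPM in the negative library. Its first class was 2.08 times (1.60 to 2.74) the last in the positive and 2.73 times (2.12 to 3.59) in the negative library. Ier2 was at 71.7, 71.2, 61.2 and 43.4 CPM in the positive and 139.5, 139, 98.4 and 64.9 CPM in the negative library. Atf3 was at 7.43 and 3.34 CPM in the first and last class of the positive library and at 11.6 and 8.68 CPM in the negative library. Ier3 went from 7.64 to 5.30 CPM and from 9.64 to 6.17 CPM, and Fos from 8.74 to 11.5 CPM and from 9.40 to 9.69 CPM.

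Myc took opposite directions in the 2 libraries. In the positive library it was at 13.2 CPM (12.5 to 13.9), 12.4, 7.18 and 7.98 CPM (6.48 to 9.73), and in the negative library at 16.8 CPM (16.1 to 17.5), 17.3, 30.0 and 28.1 CPM (24.5 to 32.0). The difference was not tested, with 1 library on each side. In the positive library's cells with 0 Zscan4 the direction was the same as in the whole library, with 17.2 CPM at under 2 and 11.8 CPM at 2 or more Gata6 plus Dab2 UMIs.

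**Figure D5:**
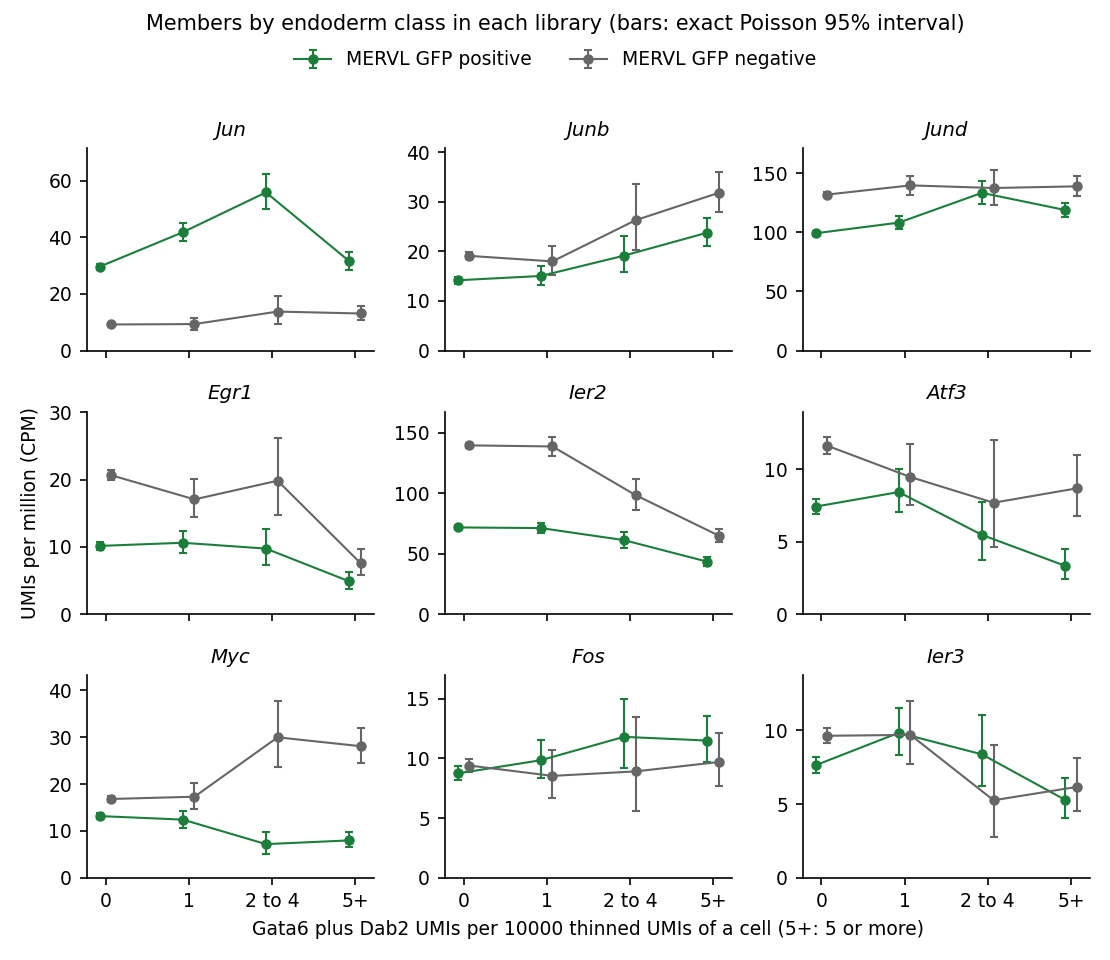
CPM of 9 genes by Gata6 plus Dab2 class in the positive (green) and negative (grey) library, with exact Poisson 95% intervals and each axis starting at 0. Junb is higher and Egr1 and Ier2 lower in the last class of both libraries, and Myc goes to 7.98 CPM in the positive and to 28.1 CPM in the negative library.

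For 583 cells with at least 2 Gata6 plus Dab2 UMIs against those with 0 in the positive library, none of the 10 genes was called, where 5.2% of 8200 genes were higher and 4.29% lower. For 246 such cells in the negative library none was called either, where 5.44% of 7579 genes were higher and 2.78% lower. Jun's log2 ratio was 0.40 in the positive and 0.48 in the negative library, which is 0.65 and 0.80 above the median of the other 9. It was not the highest of the 10 in either: Junb, at 0.62 and 0.65, was above it in both, and Myc, at 0.73, in the negative library.

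In single cells the genes moved with each other only weakly. Over the 45 pairs of the 10 genes, Spearman's rho of thinned counts ran from -0.03 to 0.16 in the 4402 cells of the positive library and between -0.05 and 0.14 in the 3824 cells of the negative library. Jun and Jund were the highest pair in each, at 0.158 and 0.138. In the positive library Jun's rho was 0.234 with Zscan4, 0.133 with GFP, 0.0595 with Gata6 plus Dab2 and -0.233 with UMIs per cell; in the negative library it was -0.0995 with UMIs per cell. These cells share a library each and the counts are sparse, so the values are a description.

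The genes whose pattern was most like each member's were taken over 9 cell classes (7 of the positive library by Zscan4 and Gata6 plus Dab2, and 2 of the negative library), by Pearson's r of log2 (CPM + 1) over 9139 genes. For Jun these were Api5 (r = 0.99), Zscan21, Gm42653, Snap29 and mt-Nd6 (r = 0.99). Of the other members, Ier3 and Fos were nearest to Jun, at 0.442 and 0.488, and Myc farthest, at -0.806; Junb was at -0.567, Jund at -0.639 and Ier2 at -0.616. For Myc the nearest genes were Mipol1, Spry4 and Mrpl2, for Ier2 Ramp3, Crmp1 and Myo10, and for Fos Spata5, Polr1c and Brf2. For Egr1 they were Cox11, Tfam and Rnaseh1, and for Atf3 BC028528, Rnaseh1 and Ubb-ps. The 9 classes share 2 libraries and differ in depth, so r is a description.

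Other AP-1 family genes were mostly too low to call, with 1 exception of size. Of 13 genes, 3 could be called between the libraries, and 1 was higher and 1 lower, beside 7.01% and 0.995% of all genes. The share of all genes that were higher was 7.01% with Zscan4, 4.18% with GFP and 3.39% in cells with 0 Zscan4, Gata6 and Dab2 UMIs. With Gata6 plus Dab2 it was 5.2% in the positive and 5.44% in the negative library. Atf2, a CRE-binding partner of Jun, was at 255.9 CPM in the positive and 51.1 CPM in the negative library, with a log2 ratio of 2.30. It was at 585 and 128 CPM in cells with at least 5 and with 0 Zscan4 UMIs, at 471 and 127 CPM in cells with at least 3 and with 0 GFP UMIs, and at 438 and 212 CPM with and without Gata6 plus Dab2 in the positive library. Among cells with 0 Zscan4, Gata6 and Dab2 UMIs it was at 104 CPM in the positive and 51.4 CPM in the negative library, and with TMM scaling it was not called there. Jdp2, a repressor that dimerises with Jun, was lower at 6.85 and 16.3 CPM between the libraries. Fosb was higher with Gata6 plus Dab2, at 11.6 and 2.35 CPM in the positive and 12.8 and 4.06 CPM in the negative library, and passed 10 CPM only through that group in both.

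Of 33 other immediate early genes, 18 could be called between the libraries, and 3 were higher and none lower, beside 7.01% and 0.995% of all genes. These were Ccn2, a secreted target of YAP and serum response factor, at 31.3 and 10.8 CPM, Btg2, an antiproliferative gene, at 70.0 and 26.3 CPM, and Csrnp1 at 14.5 and 6.13 CPM. Csrnp1 passed the limit of 10 CPM only through its higher group, and with TMM scaling Btg2 and Ccn2 alone were called. The median log2 ratio of the 18 was 0.66, beside 0.14 over all genes, and with TMM 0.38 beside -0.16. With Zscan4, 3 of 20 were higher and none lower, beside 7.01% and 2.16% of all genes. These were Dusp5, a nuclear ERK phosphatase, at 14.9 and 5.64 CPM, Btg2 at 119.6 and 51.4 CPM and Csrnp1 at 24.6 and 10.3 CPM. The median was 0.59 beside -0.08, and Dusp5 too passed 10 CPM only through its higher group. With TMM scaling 4 of 20 were higher, Nfkbia being added. With GFP, Csrnp1 was higher at 22.5 and 9.75 CPM, where 4.18% of all genes were.

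With Gata6 plus Dab2, 4 of 19 were higher and 2 lower in the positive library, beside 5.2% and 4.29% of 8200 genes. In the negative library 4 of 19 were higher and 1 lower, beside 5.44% and 2.78% of 7579 genes. Phlda1 was at 77.0 and 18.2 CPM in the positive and 119 and 9.15 CPM in the negative library, and Klf6 at 88.0 and 23.6 CPM and at 50.2 and 18.8 CPM. Gadd45g was higher in both libraries, at 18.5 and 7.18 CPM and at 17.1 and 6.95 CPM, and Ier5l lower in both, at 8.39 and 19.2 CPM and at 6.43 and 17.8 CPM. Ccn1 was called higher in the positive library alone, at 24.6 and 11.5 CPM, and Trib1, a pseudokinase, in the negative library alone, at 15.7 and 2.16 CPM. Nfkbia, the inhibitor of NF-kappaB, was called lower in the positive library alone, at 23.7 and 63.7 CPM. The difference between the libraries in these contrasts was not tested. Phlda1 in the negative library, Gadd45g, Trib1 and Ier5l passed 10 CPM only through the group where they were higher. Among cells with 0 Zscan4, Gata6 and Dab2 UMIs, Ccn2 was higher in the positive library at 27.1 and 10.7 CPM, and none of the list was called with TMM.

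Of 13 MAP kinases and their activators, 11 could be called between the libraries and with Zscan4, and none was called in any of the 6 comparisons. Over these comparisons 3.39% to 7.01% of all genes were higher and 0.438% to 4.29% lower. For so few genes, no call lies near these shares. Of 6 serum response factor and ternary complex genes, at most 1 could be called in a comparison and none was. Of 9 feedback targets of ERK, 1 was higher between the libraries, the phosphatase Dusp4, at 38.0 and 16.7 CPM, where 7.01% of all genes were higher. With TMM scaling Dusp4 was not called and Etv4, an ETS factor, was called lower. Dusp4 was also higher with Gata6 plus Dab2, at 145.9 and 21.2 CPM in the positive and 123 and 9.07 CPM in the negative library. Others of the list differed in either direction there: Etv5, an ETS factor, was lower in the positive library at 26.0 and 61.7 CPM, and Spry2, an inhibitor of receptor signalling, higher in the negative library at 227 and 82.7 CPM. Of the 9, 1 was higher and 1 lower in the positive library (median log2 ratio -0.42) and 2 were higher in the negative library (median -0.16). Of all genes, 5.2% were higher and 4.29% lower in the positive library and 5.44% higher in the negative library. With Zscan4, 1 of the 9 was called, Etv4, which was lower at 12.7 and 26.6 CPM, beside 2.16% of all genes, a call that was lost with TMM.

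Stress gene lists were mixed, and most of their counts were of 1 gene. The shares of all genes called higher and lower were 7.01% and 0.995% between the libraries and 7.01% and 2.16% with Zscan4, and 4.18% and 0.98% with GFP. Of 11 genes of the integrated stress response, 1 was called between the libraries, Chac1, which was lower at 14.1 and 41.8 CPM; it was also lower with Zscan4, at 7.14 and 17.6 CPM, and among cells with 0 Zscan4, Gata6 and Dab2 UMIs, at 18.4 and 43.0 CPM, where 0.438% of all genes were lower. Ddit4 was lower with Gata6 plus Dab2 in the negative library, at 7.59 and 18.5 CPM, where 2.78% of all genes were. Of 13 p53 targets none was called in any of the 6 comparisons; with TMM, Bbc3 of this list and Trib3 of the stress response were lower between the libraries. Of 9 heat shock genes, Hspa1a was higher between the libraries, at 10.1 and 0.345 CPM, just above the limit of 10 CPM, and could not be called with TMM. With Zscan4, Hspa1a was at 32.0 and 2.15 CPM, Hspa1b at 17.6 and 2.83 CPM and Dnajb1 at 74.7 and 36.6 CPM, all 3 called higher, Hspa1a and Hspa1b passing 10 CPM only through these cells, while the 9 genes together summed to 7865 and 9760 CPM. With GFP, Hspa1a was at 17.7 and 3.24 CPM and Hspa1b at 10.2 and 2.88 CPM, the 2 higher of 9. With Gata6 plus Dab2 in the positive library Hspa1a was lower, at 3.75 and 10.7 CPM, where 4.29% of all genes were. Of 10 Myc family and partner genes, 1 was called in the 6 comparisons, Mycn, which was higher with Gata6 plus Dab2 in the positive library at 75.6 and 28.5 CPM, where 5.2% of all genes were. Of the cell cycle lists, Cenpe of 16 G2/M genes was higher between the libraries, at 183.3 and 86.3 CPM, and Ccne2 of 15 S phase genes with Zscan4, at 23.0 and 10.5 CPM. Scaled by TMM, Cenpe was not called and Ccne2 was. The part of stress, cell cycle and RNA quality in Jun's level was not tested.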

How the data were processed

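Single-cell RNA was counted in 1 library per group. The deposited files hold whole-number counts of UMIs per gene and cell, made by the authors. FastQC 0.11.2, Trim Galore 0.6.4, STAR 2.7.6a and the build mm10 are named in the submitters' processing notes; the annotation, cell calling, strand setting and UMI counting are not given in the sources used here, and the labels' library protocol describes an RNA kit with no droplet step, so that the counts are UMIs is taken from the files' form.

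Cells were kept with at least 1000 UMIs, 500 genes and at most 20% mitochondrial UMIs, which removed 7 cells of the positive and 0 of the negative library. The kept cells held 138303336 and 156406894 UMIs. Classes by Zscan4 (9 symbols), GFP, and Gata6 plus Dab2 came from cells thinned to 10000 UMIs, and levels from all UMIs of a class (Python 3.11.15, numpy 2.4.6, pandas 2.3.3). Log2 ratios are of CPM + 1, which understates low genes. Intervals are exact Poisson, conditional binomial or Clopper-Pearson (scipy 1.17.1) and cover counting error only. TMM came from edgeR 4.0.16 in R 4.3.3, for scaling alone. Classes under 50 cells are not given. No doublet caller was run; cells above 2 times the median UMIs were left out as an alternative.

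The 10 genes and all lists were chosen with earlier results of these data known. All 10 are named; of the pathway lists the text gives, genes past 2-fold were named, at most 4 per list and comparison by size, with Ccn1, Gadd45g and Ier5l added after their values were seen; genes most like a member were the top 5 for Jun and the top 3 for Fos, Egr1, Ier2, Atf3 and Myc. Alternatives changed the cell filter, scaling, pseudocount, low-value limit, fold, class limits, thinning and depth range.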

Additional observations from a re-analysis of the deposited data

Results flagged for a closer look

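Myc differed in direction between the libraries along the Gata6 plus Dab2 level. In cells with at least 2 of these UMIs against cells with 0, its log2 ratio was -0.70 in the positive library, at 7.73 and 13.2 CPM, and 0.73 in the negative library, at 28.5 and 16.8 CPM. The intervals of the CPM ratio were 0.490 to 0.699 and 1.498 to 1.91, and both cover counting error only. The difference itself was not tested, since each side is 1 library. The sign in each library was the same in all 14 alternative settings tried.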

How the results depend on the processing

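Jun's gap to the median of the other 9 genes kept its sign in all 86 alternative values. It ran from 1.73 to 2.22 between the libraries, 1.61 to 2.54 with Zscan4, 1.01 to 1.39 with GFP, 0.39 to 0.95 with Gata6 plus Dab2 in positive cells and 0.72 to 0.98 in negative cells, and 1.13 to 1.52 in cells with 0 Zscan4, Gata6 and Dab2 UMIs. The value of 2.54 came from higher class limits (20 or more Zscan4 UMIs).

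Counts of genes past the fold were less steady: 30 of 104 moved by over 1.5 times; the cause was not tested. Between the libraries (1 gene) the count was 3 with TMM, with median of ratios, with CPM outside ribosomal protein and mitochondrial genes and at 20000 to 40000 UMIs, 2 with the mean of each cell's CPM and with a pseudocount of 0.1, 4 at 1.5-fold and 0 at 4-fold. With Zscan4 (2 genes) it was 4 with higher limits and 0 at 4-fold. With GFP (1 gene) it was 0 with the stricter cell filter, at 4-fold, at 20000 to 40000 UMIs and at up to 5% mitochondrial UMIs, 3 at 1.5-fold, and 2 with classes from 5000 UMIs and with higher limits. With Gata6 plus Dab2 (0 genes) it was 2 at 1.5-fold in positive cells, and for negative cells 1 with TMM and with thinned UMIs only, 4 at 1.5-fold and 2 with higher limits. In cells with 0 Zscan4, Gata6 and Dab2 UMIs (1 gene) it was 3 with TMM and median of ratios, 4 at 1.5-fold, and 0 with CPM outside ribosomal protein and mitochondrial genes, at 4-fold, without cells above 2 times the median UMIs, with thinned UMIs only and at 20000 to 40000 UMIs.

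Of 800 values of single genes, 26 had the other sign, and none was of a called gene. The limit of 5% mitochondrial UMIs and the range of 15000 to 30000 UMIs were chosen after seeing the data. No paired analysis was possible because there is a single library on each side, so no library was left out in turn either. Alternatives that act on classes gave no value for the libraries as a whole. The main limits are that 1 library per group gives no spread between cultures, that Jun varied with depth, and that Fosl1 had too few UMIs to compare.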
